A study of Rattus norvegicus with 12 samples.

Results

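The genes described here encode proteins that splice, package and process RNA in the rat hippocampus. They were chosen by name: every probe set (a group of short oligonucleotides on the array that reports on 1 transcript) was taken whose only gene symbol in the array annotation starts with Snrp, Srsf, Hnrnp, Sf3a, Sf3b, Prpf, Rbm and a digit, Cpsf, Ddx or Celf. This gave 145 probe sets for 106 genes, of 15923 probe sets and 10412 gene symbols on the array. The rule uses names only. A further 10 probe sets, among them those of Hnrnpk, Snrpc, Snrpg and Srsf3, carry several symbols and were not taken.

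In the nucleus the spliceosome removes introns from new transcripts. Small nuclear ribonucleoproteins recognise the ends of the intron and the branch point, the Sm proteins and the SF3a and SF3b complexes are parts of these particles, and the Prpf proteins act in their assembly and catalysis. SR proteins (Srsf) and heterogeneous nuclear ribonucleoproteins (Hnrnp) bind the transcript and set which exons are kept, and Celf and many Rbm proteins do so in a tissue-dependent way. The Cpsf proteins cut the transcript at its end before the poly(A) tail is added, and the Ddx proteins are RNA helicases that remodel RNA and its protein partners. Neurons use alternative exons widely, and activity is known to alter splicing and polyadenylation of some neuronal transcripts.

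The 12 samples were hippocampi of young rats, each sample a pool of 3 to 4 animals. Injection was at postnatal day 20. The 4 groups of 3 samples were PBS_isolated (PBS, then 10 days in single cages), KA_isolated (KA, then the same single housing), PBS_enriched (PBS, then large cages that held 8 rats each) and KA_enriched (KA, then the large cages). PBS is phosphate-buffered saline, the vehicle. The labels give KA without spelling it out, and it is taken as kainic acid, a glutamate receptor agonist that induces seizures, because the series is about seizures. The labels name no strain, and no group had ordinary group housing, so enrichment and isolation cannot be told apart. Which cage or litter an animal came from is not given, and p-values measure the spread between pools.

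The arrays had 1 colour and 1 sample each, and their values are signals on a linear scale with the same trimmed mean of 150.03 on every array. Tests were run with limma on log2(signal + 17) across the 9520 probe sets with the highest mean, with Benjamini-Hochberg adjustment over all 9520 and a threshold of 0.05. All 8 of the hippocampal neuron markers on the array were above that filter. Of the members, 119 probe sets for 94 genes were above it and 26 were below. The genes with no probe set above it were Cpsf6, Ddx19b, Ddx20, Ddx28, Ddx31, Ddx49, Ddx52, Ddx56, Rbm12b, Rbm47, Snrpa and Srsf10. The Hnrnp family had 25 of 25 probe sets above the filter, and the smaller Sf3a (3), Sf3b (8) and Celf (8) families also had all of theirs. The Ddx family had 21 of 30 and the Rbm family 23 of 30. A signal depends on the probe as well as on the transcript, so levels are compared only between samples and never between probe sets.

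KA_enriched replicate 3 stood apart for these genes. Its value was the lowest of the 12 for 31 of the 119 members (26.1%), against 16.7% of all probe sets tested, and the highest for 20 (16.8%), against 16.7%. In 18 members (15.1%) it lay more than 0.3 on the log2 scale below the median of the other 11 samples, against 8.27% of all probe sets tested. KA_enriched replicate 2 gave the highest value for 23 members (19.3%), against 12.6% of all. The log2 ratio of the 3′ to the 5′ control probe sets is a sign of RNA length. It was higher in KA_enriched replicate 3 than in the other 11 samples for beta-actin (0.856), GAPDH (0.249) and hexokinase (1.60). The mean log2 value of microglial markers, each less its mean over the 12 samples, was 0.292 in KA_enriched replicate 3. It was -0.128 and -0.311 in KA_enriched replicates 1 and 2, and 0.308 in PBS_enriched replicate 2. For hippocampal neuron markers KA_enriched replicate 3 had the highest mean of the 12 samples, 0.115. The part of RNA length and of these cells in the values of the members was not tested. Several results on this group are given with and without that sample.

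**Figure D1:**
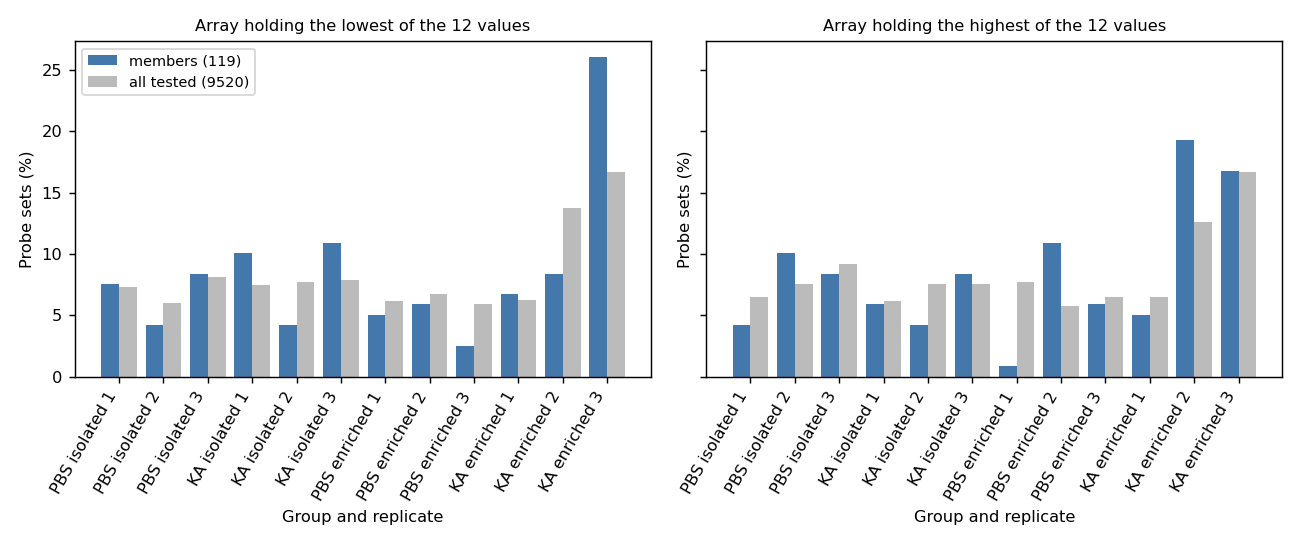
Share of probe sets (%, vertical axes) for which each of the 12 samples (horizontal axes) held the lowest (left) or the highest (right) value, for the 119 members (blue) and all 9520 tested probe sets (grey). KA_enriched replicate 3 held the lowest value for 26.1% of the members against 16.7% of all tested.

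The question of the study's design is whether KA, housing or their combination altered expression. For these genes 0 of 119 member probe sets passed in any of the 7 comparisons or in the F test for any difference among the 4 groups. Over all 9520 probe sets the share that passed for KA against PBS was 0.0105% with single housing, 0.00% with enriched housing and 0.0105% for the mean of both housings. It was 0.0105% for enriched against isolated housing after PBS, 0.00% after KA and 0.0210% for the mean of both treatments. It was 0.00% for the interaction, which is the KA difference under enrichment less that under isolation, and 0.0105% for the F test. At an unadjusted p under 0.05, limma's F test held 7 of the 119 members (5.88%) against 4.94% of all. The values below are therefore descriptions of single probe sets, and a difference that missed the threshold is not shown to be absent.

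How small the differences were can be stated from their intervals. In the mean housing comparison the 95% interval of the difference lay within 1.5-fold in either direction for 118 of 119 member probe sets, the exception being 1 of Sf3a1. For KA against PBS averaged over both housings this held for 117, and the exceptions were probe sets of Celf2 and Prpf40b. Within 1 housing or 1 treatment it held for 108 to 115 probe sets, and for the interaction, with its median standard error (SE) of 0.136 on the log2 scale, for 95. The spread between samples of a group had a median SD of 0.118 on the log2 scale over the members and 0.123 over all probe sets tested.

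**Figure D2:**
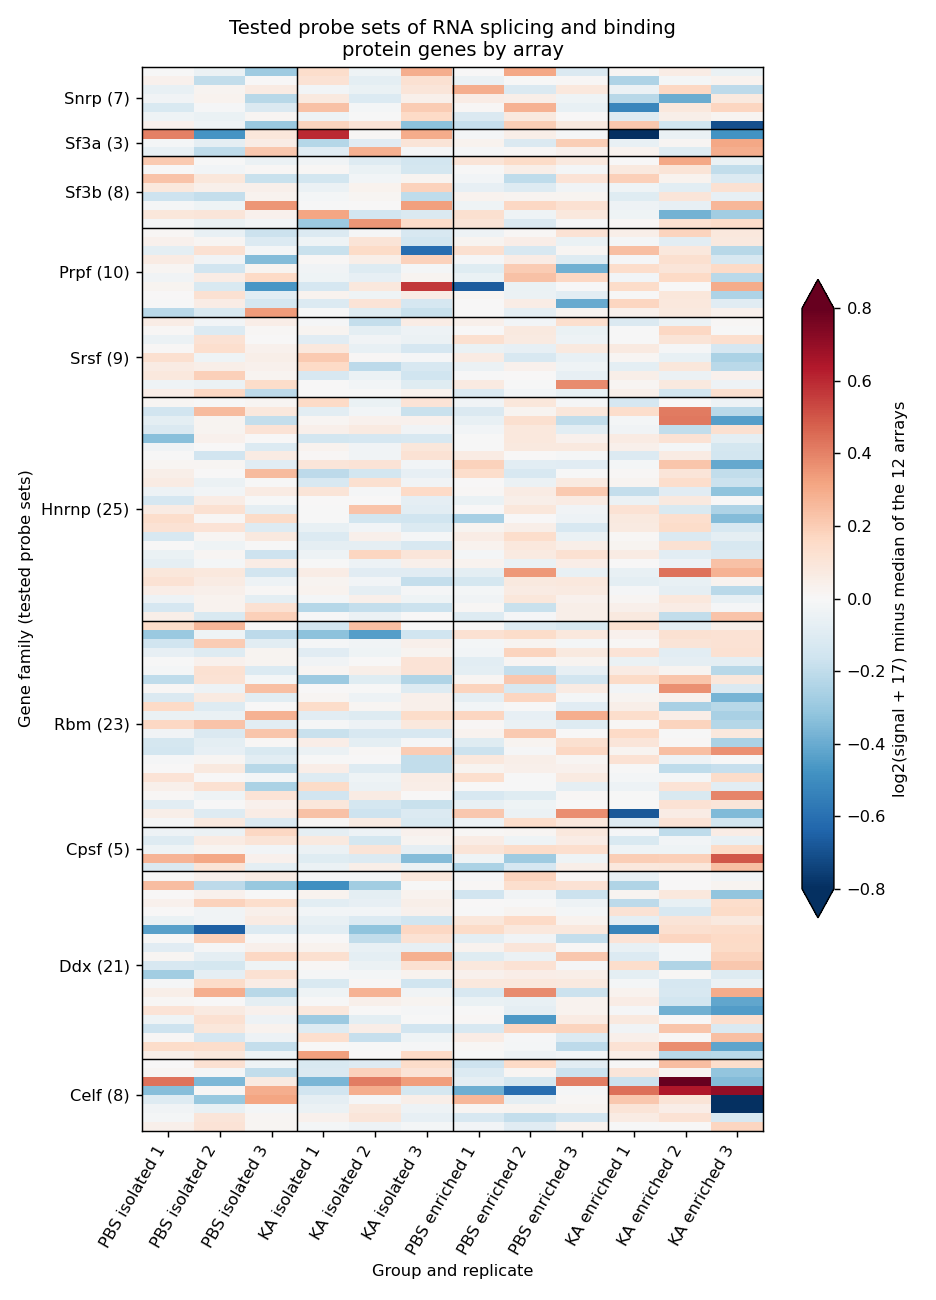
Each row is 1 of the 119 member probe sets above the filter, grouped by family, and each column 1 of the 12 samples; colour gives the log2 value minus the median of that probe set over all samples. No block of rows separates the 4 groups, and the KA_enriched columns hold many of the deepest colours.

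Housing was compared with both treatments pooled. At an unadjusted p under 0.05, 8 of 119 members were past the line, or 6.72%, against 5.64% of all tested. Of these, 5 had higher and 3 had lower values in enriched rats, against 3.31% and 2.33% of all tested. The median log2 difference was 0.01 over the members and 0.00 over all probe sets, and 67 of the 119 were above 0, against 51.0% of all tested. Rbm14 alone among the members had all 6 enriched samples on 1 side of all 6 isolated samples (0.840% of the members, against 0.305% of all tested).

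Rbm14 (probe set 1374844_at) encodes an RNA-binding transcriptional coactivator found in nuclear paraspeckles. Its signal was 56.1, 70.9 and 60.8 for PBS_isolated, 54.5, 49.1 and 63.3 for KA_isolated, 80.7, 82.3 and 78.1 for PBS_enriched, and 74.8, 80.9 and 80.4 for KA_enriched. Each of the 6 enriched samples was above each of the 6 isolated samples. The mean was 62.6 ± 7.55 in isolated and 80.4 ± 2.13 in enriched rats (SD, n = 3) with PBS, and 55.6 ± 7.16 and 78.7 ± 3.39 with KA. The housing difference was 0.35 on the log2 scale (SE 0.0627, adjusted p = 0.174), which ranked 5 of 9520 by p and did not pass. It was 0.30 after PBS (adjusted p = 0.998) and 0.40 after KA (adjusted p = 0.521), and the interaction was 0.11 (SE 0.125). Without 1 sample in turn the mean housing difference was 0.32 to 0.39, with adjusted p from 0.129 to 0.555. In bulk tissue a lower signal can mean fewer cells of a type or less RNA per cell, and these cannot be told apart. A list of thalamus and striatum markers, tissue that lies near the hippocampus, had higher values in enriched rats: 6 of its 9 genes on the array were above the filter (Adora2a, Drd1 and Drd2 were not), and their summed signal was 641 to 654 for PBS_isolated, 639 to 677 for KA_isolated, 672 to 743 for PBS_enriched and 647 to 695 for KA_enriched. The PBS groups were apart in this sum and the KA groups overlapped. Its part in the Rbm14 values was not tested.

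The promoters of Rbm14 and Hnrnpab are shown because Rbm14 had the smallest p of the members for housing and Hnrnpab one of the smallest for KA in enriched rats, and both are in the sequence table; Cpsf4 and Celf2, described further on, are only named. Each line runs from 250 bases before to 50 bases after the RefSeq start of the gene in build GRCr8, Rbm14 at chr1:211535016-211535315 and Hnrnpab at chr10:36363849-36364148, both on the minus strand and written 5′ to 3′. Capitals mark matches on either strand to the letters of a CCAAT box, a GC box or a TATA box.
Rbm14: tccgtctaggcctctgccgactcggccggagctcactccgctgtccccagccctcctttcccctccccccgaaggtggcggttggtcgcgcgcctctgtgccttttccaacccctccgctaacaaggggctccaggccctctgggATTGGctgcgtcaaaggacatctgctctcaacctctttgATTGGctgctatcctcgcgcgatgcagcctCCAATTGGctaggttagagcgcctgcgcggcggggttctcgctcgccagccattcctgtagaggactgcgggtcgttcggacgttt
Hnrnpab: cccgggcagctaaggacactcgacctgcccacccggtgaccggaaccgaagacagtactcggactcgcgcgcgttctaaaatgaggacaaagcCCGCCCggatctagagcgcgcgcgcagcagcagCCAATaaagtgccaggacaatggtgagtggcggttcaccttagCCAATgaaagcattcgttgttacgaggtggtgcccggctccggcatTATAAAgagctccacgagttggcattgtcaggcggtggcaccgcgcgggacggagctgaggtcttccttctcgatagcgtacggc

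The letters of 5 motifs were searched on both strands in the 33469 RefSeq promoters of that length. The Rbm14 window held 4 matches to CCAAT or its reverse ATTGG, of which 2 overlap as CCAATTGG, and none to the other letters. CCAAT was found in 37.5% of all promoters and in 53.8% of the 93 promoters of 87 of the tested member genes. There were 4 or more matches in 0.675% of all promoters and in 2.15% of the member promoters. The latter share is 2 promoters, 1 of them that of Rbm14. This motif was added after the Rbm14 letters had been seen. The Hnrnpab window held 2 CCAAT matches, 1 GC box and 1 TATA box. The GC box GGGCGG was in 33.1% of all promoters and 53.8% of the member promoters, and the TATA box TATAAA in 14.2% and 6.45%. The cyclic AMP response element TGACGTCA was in 1.83% and 2.15%, and the Egr site GCGTGGGCG in 0.544% and 2.15%. For both of these motifs 2.15% was 2 member promoters. The median GC content was 60.3% for the member genes and 51.7% for all genes. These matches describe letters, and no binding was measured.

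Among the other Rbm members, Rbm24, a splicing regulator known mainly from heart and muscle, had the smallest p after Rbm14 in that comparison among members with higher values. Its signal (1374056_at) was 98.0, 127 and 114 for PBS_isolated, 91.3, 107 and 95.4 for KA_isolated, 117, 137 and 102 for PBS_enriched, and 130, 138 and 124 for KA_enriched. The KA_enriched samples lay above the KA_isolated samples, while the PBS groups overlapped. The difference was 0.21 (SE 0.0744, adjusted p = 0.832) over both treatments and 0.37 (adjusted p = 0.622) after KA. The other probe sets of Rbm24 were below the filter and were fitted without it. There 1375160_at gave -0.31 over both treatments and -0.40 after KA, 1375198_at gave 0.08 and 0.15, and 1375290_at gave 0.21 and 0.09. Prpf18, which acts at the last catalytic step of splicing, had signals of 153, 145 and 132 for PBS_isolated, 139, 151 and 137 for KA_isolated, 147, 152 and 166 for PBS_enriched, and 157, 174 and 161 for KA_enriched (1399021_at). Its housing difference was 0.14 (SE 0.0549, adjusted p = 0.832), and again the groups were apart after KA and overlapped after PBS. The dim Prpf18 probe set 1388005_at gave -0.07 (SE 0.204) over both treatments in the fit without the filter. The housing differences of the tested probe sets were 0.23 for Rbm24 and 0.15 for Prpf18 without KA_enriched replicate 3.

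Lower values in enriched rats were led by Ddx5, a helicase that acts in splicing and transcription. Its probe set 1372484_at gave 1077, 1047 and 1020 for PBS_isolated, 1056, 998 and 989 for KA_isolated, 996, 947 and 1019 for PBS_enriched, and 992, 759 and 728 for KA_enriched. KA_enriched replicates 2 and 3 were far below the other 10 samples, which lay close together. The housing difference was -0.19 (SE 0.0709, adjusted p = 0.832). It was -0.15 without KA_enriched replicate 3 and -0.26 without replicate 1. The other Ddx5 probe set, 1371837_at, gave 960, 957 and 903, then 953, 985 and 969, then 921, 915 and 977, then 995, 862 and 712 in the same order of groups, with a difference of -0.10 (SE 0.0704).

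Sf3a1 encodes a subunit of the SF3a complex, which helps to place the branch point. Its probe set 1374668_at gave 69.96, 30.5 and 52.9 for PBS_isolated, 82.4, 49.1 and 63.8 for KA_isolated, 47.9, 50.8 and 48.3 for PBS_enriched, and 20.01, 46.2 and 30.1 for KA_enriched. The KA_enriched samples lay below the KA_isolated samples, but the spread inside 3 of the groups was wide. The housing difference was -0.38 (SE 0.155, adjusted p = 0.832) over both treatments and -0.76 (SE 0.219, adjusted p = 0.622) after KA. This probe set was dim: its mean of 6.003 on the log2 scale was just above the filter at 5.997. With other processing settings the difference after KA ran from -1.04 to -0.49. A probe set for the same gene, 1389328_at, did not follow: it gave 58.9, 56.1 and 63.0, then 48.5, 55.0 and 65.4, then 61.3, 53.9 and 71.1, then 56.9, 60.7 and 78.2, a difference of 0.10 (SE 0.0812). Ddx6 is a helicase of processing bodies that represses translation, and its tested probe sets had the same sign over both treatments but not after KA. Its probe set 1398945_at gave 184, 189 and 173 for PBS_isolated, 227, 178 and 200 for KA_isolated, 177, 172 and 174 for PBS_enriched, and 185, 150 and 151 for KA_enriched, a difference of -0.17 (SE 0.0679, adjusted p = 0.832). The probe set 1389868_at for Ddx6 gave -0.04 (SE 0.113). After KA the Ddx6 differences were -0.29 for 1398945_at and 0.03 for 1389868_at. Leaving out KA_enriched replicate 3, the differences of 1374668_at and 1398945_at over both treatments were -0.37 and -0.15.

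**Figure D3:**
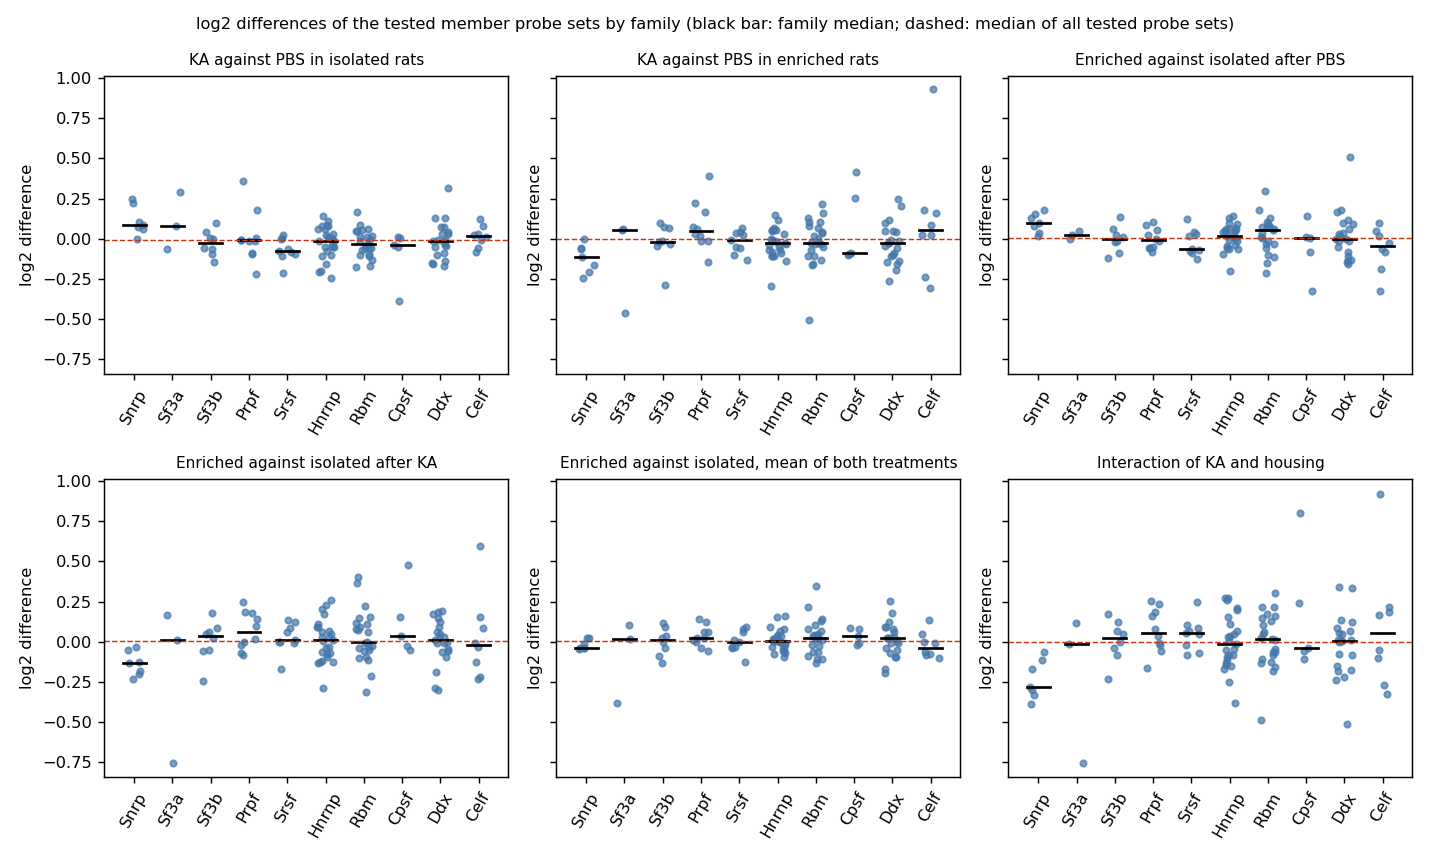
Log2 differences (vertical axes) of the tested member probe sets by family (horizontal axes), 1 panel for each of 6 comparisons, 1 point per probe set, with black bars at family medians and a dashed line at the median of all tested probe sets. Most points lie within 0.2 of 0, and the 7 Snrp points of the interaction lie between -0.39 and -0.06.

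Housing was also compared within each treatment. After PBS, 4 members were at an unadjusted p under 0.05 (3.36%, against 4.21% of all tested), 2 higher (2.15% of all) and 2 lower (2.06% of all), and the groups did not overlap for 16 members (13.4%, against 11.6%). After KA there were 12 (10.1%, against 7.02% of all), 7 higher (4.08% of all) and 5 lower (2.94% of all), and the groups did not overlap for 17 (14.3%, against 10.8%). Without KA_enriched replicate 3 the count after KA was 18 (15.1%, against 8.99%), and without replicate 1 it was 19 (16.0%, against 9.71%), so both the members and the background moved with the sample left out. None of these probe sets passed the adjusted threshold.

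Ddx25, a helicase best known from testis, had the largest difference after PBS. Its signal (1368619_at) was 152, 129 and 195 for PBS_isolated, 199, 166 and 240 for KA_isolated, 237, 226 and 226 for PBS_enriched, and 142, 233 and 235 for KA_enriched. The 3 PBS_enriched samples were above the 3 PBS_isolated samples, and the KA samples ran from 142 to 240. The difference was 0.51 (SE 0.179, adjusted p = 0.998) after PBS and -0.01 after KA. Celf4, which binds the transcripts of excitatory neurons, differed the other way after PBS. Its signal (1381995_at) was 761, 824 and 778 for PBS_isolated, 789, 825 and 735 for KA_isolated, 702, 671 and 689 for PBS_enriched, and 807, 835 and 703 for KA_enriched. The PBS_enriched samples were the lowest of the 12, and the difference was -0.19 (SE 0.0801, adjusted p = 0.998). After KA it was -0.01.

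KA against PBS in isolated rats gave 4 members at an unadjusted p under 0.05, all with lower values after KA (3.36%, against 4.31% of all tested in either direction, 2.30% lower and 2.01% higher). The groups did not overlap for 10 members (8.40%, against 10.8% of all). The 4 were Cpsf4, Srsf6 and 1 probe set each of Hnrnpu and Hnrnpa3. Microglial markers were higher in the same comparison: 15 of 18 genes on the array were above the filter (Cd68, Itgam and Ptprc were not), and their summed signal was 2201 to 2307 for PBS_isolated and 3010 to 3544 for KA_isolated. In the enriched rats it was 2239 to 3273 with PBS and 2035 to 3250 with KA. Astrocyte markers (8 of 8 genes above the filter) summed to 7254 to 7678 for PBS_isolated and 8137 to 8511 for KA_isolated, without overlap. Hippocampal neuron markers (8 of 8) summed to 6593 to 7175 and to 6298 to 6614, with overlap. The mean of their log2 values, each less its mean over the 12 samples, did not overlap. It was -0.0119 to 0.0330 for PBS_isolated and -0.0982 to -0.0548 for KA_isolated. The part of these cells in the values of the 4 genes was not tested.

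Srsf6 encodes an SR protein that promotes exon inclusion. Its probe set 1371999_at gave 97.8, 107 and 93.0 for PBS_isolated, 81.9, 87.8 and 79.8 for KA_isolated, 90.9, 91.5 and 86.2 for PBS_enriched, and 94.8, 87.6 and 93.7 for KA_enriched. The KA_isolated samples were below the PBS_isolated samples, and the enriched samples overlapped both of these groups and each other. The difference was -0.21 (SE 0.0716, adjusted p = 0.999), and in enriched rats it was 0.03. The Srsf6 probe set 1372075_at gave 298, 296 and 340, then 306, 300 and 284, then 322, 305 and 402, then 309, 324 and 297, a difference of -0.06 (SE 0.0976) in isolated rats. Across the Srsf family 2 of 9 probe sets were above 0 in isolated rats, with a median of -0.08, against 47.7% of all probe sets tested.

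Hnrnpu encodes a scaffold protein that binds RNA and chromatin. Its probe set 1372823_at gave 121, 137 and 148 for PBS_isolated, 112, 116 and 117 for KA_isolated, 135, 117 and 140 for PBS_enriched, and 139, 141 and 134 for KA_enriched. The KA_isolated samples were at the low end, and only PBS_enriched replicate 2, level with them, was as low. The KA difference in isolated rats was -0.20 (SE 0.0840, adjusted p = 0.999). Its 1370170_at and 1370171_at probe sets gave -0.05 and 0.03. Hnrnpa3, an A/B-type ribonucleoprotein, had 1 of 4 probe sets in this group: 1374405_at gave 519, 503 and 602 for PBS_isolated, 432, 453 and 478 for KA_isolated, 556, 458 and 501 for PBS_enriched, and 505, 539 and 437 for KA_enriched, a difference of -0.24 (SE 0.101, adjusted p = 0.999). Its 1370871_at, 1370872_at and 1388119_at probe sets gave 0.06, 0.08 and -0.02.

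In enriched rats 9 members were at an unadjusted p under 0.05 for KA against PBS, 5 higher and 4 lower (7.56%, against 4.98% of all tested, 2.74% higher and 2.24% lower). The groups did not overlap for 13 members (10.9%, against 9.62%). Without KA_enriched replicate 1 the count of 9 became 15 (12.6%, against 7.51%), and without replicate 3 it was 10 (8.40%, against 6.99%).

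Hnrnpab encodes a ribonucleoprotein that binds messenger RNA in the nucleus and during transport. Its signal (1370309_a_at) was 524, 531 and 565 for PBS_isolated, 581, 537 and 604 for KA_isolated, 542, 566 and 626 for PBS_enriched, and 471, 505 and 428 for KA_enriched. The 3 KA_enriched samples were the lowest of the 12, and the other 3 groups overlapped. The group means were 540 ± 21.7, 574 ± 33.9, 578 ± 43.3 and 468 ± 38.9 (SD, n = 3). KA against PBS was -0.30 in enriched rats (SE 0.0843, adjusted p = 0.842) and 0.08 in isolated rats, and the interaction was -0.38 (SE 0.119, adjusted p = 0.910). Without KA_enriched replicate 3 the difference in enriched rats was -0.24.

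Cpsf7, a subunit of cleavage factor I, was on the other side for its tested probe set. Its probe set 1383141_a_at gave 183, 216 and 188 for PBS_isolated, 192, 207 and 192 for KA_isolated, 165, 180 and 207 for PBS_enriched, and 212, 214 and 239 for KA_enriched. The KA_enriched samples were above the PBS_enriched samples, although PBS_isolated replicate 2 reached into their range. The difference was 0.25 (SE 0.0925, adjusted p = 0.932). The dim Cpsf7 probe sets 1377496_at and 1390729_x_at gave -0.12 (SE 0.242) and -0.04 (SE 0.145) in the fit without the filter. Ddx39a, a helicase of messenger RNA export, gave 81.0, 95.0 and 81.2 for PBS_isolated, 81.5, 68.9 and 89.6 for KA_isolated, 76.1, 79.7 and 69.1 for PBS_enriched, and 89.1, 94.0 and 92.9 for KA_enriched. Its difference in enriched rats was 0.25 (SE 0.0909, adjusted p = 0.932), with the enriched groups apart and the isolated groups overlapping. The differences of the tested probe sets were 0.20 for Cpsf7 and 0.24 for Ddx39a without KA_enriched replicate 3.

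Rbm7, a subunit of the complex that targets nuclear RNA to the exosome, had the largest lower value in enriched rats. Its signal (1394155_at) was 107, 94.7 and 108 for PBS_isolated, 124, 90.0 and 93.9 for KA_isolated, 122, 99.2 and 138 for PBS_enriched, and 58.0, 108 and 76.8 for KA_enriched. KA_enriched replicate 2 lay inside the PBS_enriched range, so the groups overlapped. The difference was -0.50 (SE 0.166, adjusted p = 0.932), and -0.33 without KA_enriched replicate 1. The dim Rbm7 probe set 1376503_a_at gave -0.16 (SE 0.209) in enriched and -0.21 (SE 0.209) in isolated rats in the fit without the filter. Its interaction was 0.05 (SE 0.296), beside -0.49 for 1394155_at. Sf3b5, a small subunit of SF3b, gave 318, 319 and 305 for PBS_isolated, 374, 267 and 273 for KA_isolated, 326, 290 and 316 for PBS_enriched, and 289, 225 and 242 for KA_enriched. Its difference was -0.29 (SE 0.120, adjusted p = 0.932), with the lowest PBS_enriched sample just above the highest KA_enriched sample. Without KA_enriched replicate 3 it was -0.27, and that of Rbm7 was -0.49.

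Averaged over both housings, KA against PBS gave 6 members at an unadjusted p under 0.05, 3 higher and 3 lower (5.04%, against 4.31% of all tested, 2.10% higher and 2.21% lower), and no member had all 6 KA samples apart from all 6 PBS samples (0.105% of all tested did). Prpf40b, which joins the particle at the start of the intron, gave 231, 207 and 160 for PBS_isolated, 205, 241 and 344 for KA_isolated, 137, 218 and 226 for PBS_enriched, and 254, 228 and 282 for KA_enriched. All KA_enriched samples were above the PBS_enriched samples, and the isolated groups overlapped. The difference was 0.38 (SE 0.140, adjusted p = 0.996) over both housings. In isolated rats it was 0.36, and 0.16 without KA_isolated replicate 3. Ddx46, a helicase of branch point recognition, had small differences of the same sign in both housings. Its signal (1387912_at) was 84.4, 96.1 and 89.2 for PBS_isolated, 76.6, 85.7 and 74.4 for KA_isolated, 91.3, 91.1 and 90.7 for PBS_enriched, and 83.7, 76.1 and 82.0 for KA_enriched. PBS_isolated replicate 1 fell among the KA samples, and the other 5 PBS samples were above all 6 KA samples. The difference was -0.15 (SE 0.0520, adjusted p = 0.996).

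Cpsf4 encodes a zinc finger subunit of the complex that recognises the polyadenylation signal. Its signal (1398878_at) was 111, 114 and 91.6 for PBS_isolated, 82.3, 81.4 and 66.5 for KA_isolated, 86.6, 70.1 and 86.4 for PBS_enriched, and 105, 104 and 132 for KA_enriched. The KA samples lay below the PBS samples in isolated rats and above them in enriched rats, with no overlap in either housing. The group means were 106 ± 12.3, 76.8 ± 8.86, 81.0 ± 9.49 and 114 ± 16.2 (SD, n = 3). KA against PBS was -0.39 (SE 0.114, adjusted p = 0.953) in isolated and 0.41 (SE 0.114, adjusted p = 0.842) in enriched rats. The interaction was 0.80 (SE 0.162, adjusted p = 0.758) and ranked 2 of 9520 by p. Leaving out each sample in turn gave 0.70, without KA_enriched replicate 3, to 0.89. Cpsf4 was the only member (0.840%) with opposite KA directions and no overlap in either housing, a pattern found in 47 of the 9520 probe sets (0.494%). Housing differed as well, by -0.32 after PBS and 0.48 after KA, and averaged 0.08 over both. The other tested genes of that family, Cpsf1, Cpsf2, Cpsf3 and Cpsf7, had interactions between -0.11 and 0.24.

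For the interaction 7 members were at an unadjusted p under 0.05, 5 higher and 2 lower (5.88%, against 4.97% of all tested, 2.88% higher and 2.09% lower). Without KA_enriched replicate 3 the count was 14 (11.8%, against 7.54% of all). Beside Cpsf4 and Hnrnpab these were 1 probe set each of Celf2, Sf3a1, Srsf6, Ddx39a and Hnrnpu, with interactions of 0.92, -0.75, 0.25, 0.33 and 0.27.

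**Figure D4:**
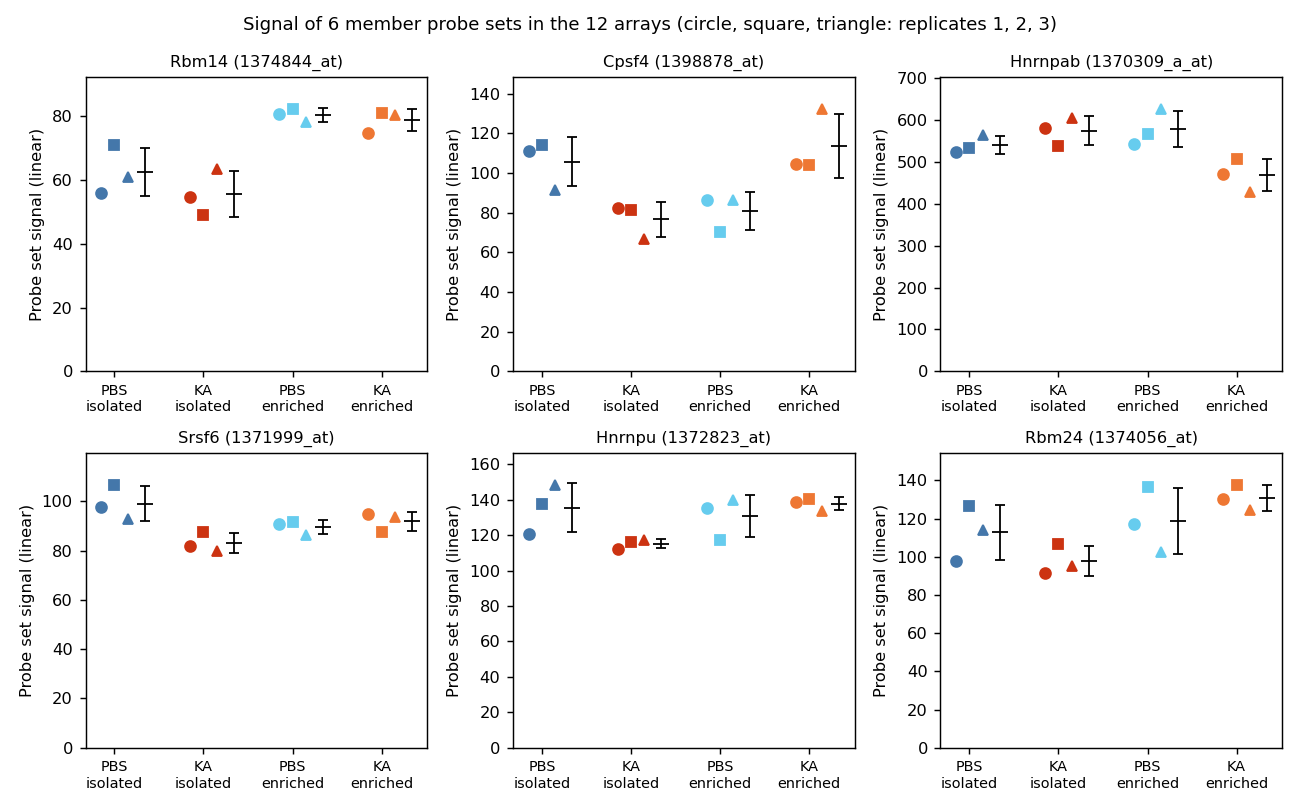
Signal (linear, vertical axes) of 6 member probe sets in the 12 samples by group; marks are samples (circle, square and triangle for replicates 1, 2 and 3) and bars are mean ± SD (n = 3). Rbm14 is above 74 in every enriched sample and under 71 in every isolated one, and Cpsf4 has opposite KA directions in the 2 housings.

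Celf2, a regulator of alternative exons in brain, had 4 probe sets above the filter. Probe set 1387880_at gave 38.8, 54.4 and 69.7 for PBS_isolated, 46.7, 69.5 and 47.2 for KA_isolated, 37.0, 29.5 and 53.2 for PBS_enriched, and 78.9, 93.5 and 98.0 for KA_enriched. The 3 KA_enriched samples were the highest of the 12. KA against PBS was 0.93 in enriched rats (SE 0.178, adjusted p = 0.842), which ranked 1 of 9520 by p, and 0.01 in isolated rats. The interaction was 0.92 (SE 0.252, adjusted p = 0.905), and the KA difference in enriched rats was 0.79 to 1.09 when each sample was left out in turn, with 0.88 for KA_enriched replicate 3.

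Probe set 1389867_at gave 1035, 1015 and 1047 for PBS_isolated, 1021, 1118 and 1028 for KA_isolated, 1066, 1071 and 1072 for PBS_enriched, and 1134, 1096 and 590 for KA_enriched. Probe set 1388195_at gave 618, 536 and 831, then 632, 661 and 687, then 803, 631 and 670, then 776, 715 and 314. In both, KA_enriched replicate 3 was below the other 11 samples, by 0.84 and 1.05 on the log2 scale from their median, while on 1387880_at the same sample was the highest, by 0.71. Probe set 1387879_a_at gave 267, 147 and 203, then 146, 262 and 248, then 183, 174 and 262, then 170, 348 and 148, and had the largest spread within groups of any member, with an SD of 0.45 on the log2 scale. KA against PBS in enriched rats was -0.24 (SE 0.178) for 1389867_at, -0.31 (SE 0.259) for 1388195_at and 0.03 (SE 0.294) for 1387879_a_at. With KA_enriched replicate 3 left out these were 0.06, 0.09 and 0.25, so that all 4 probe sets were above 0. Which transcripts of the gene each probe set reads is not given in the files.

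**Figure D5:**
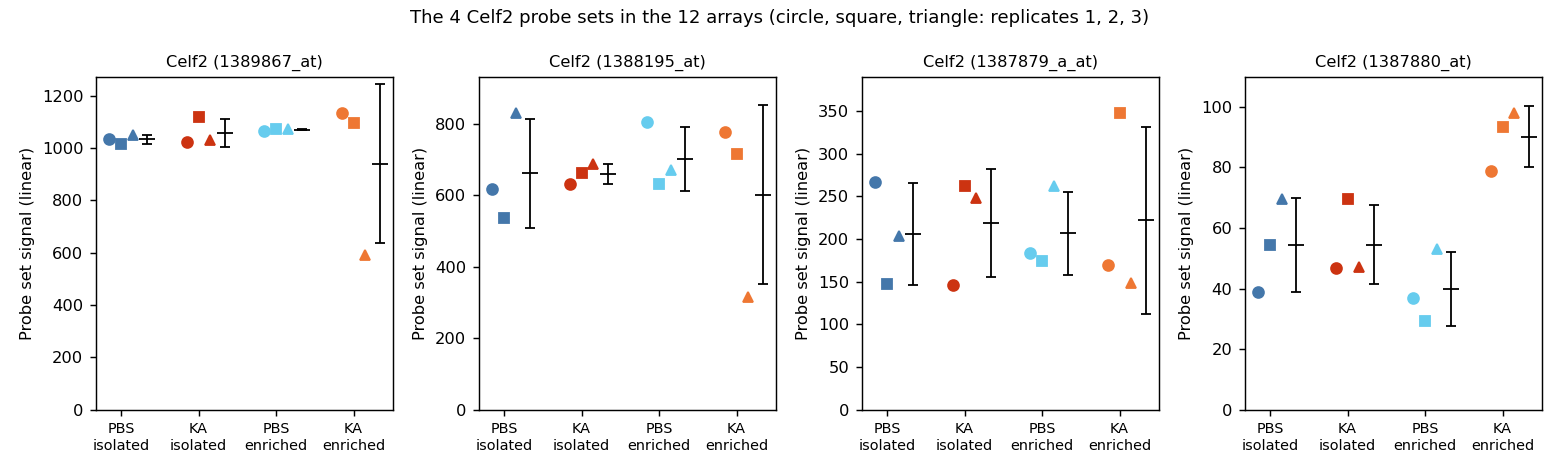
Signal (linear, vertical axes) of the 4 Celf2 probe sets in the 12 samples by group; marks are samples (circle, square and triangle for replicates 1, 2 and 3) and bars are mean ± SD (n = 3). KA_enriched replicate 3 is the lowest sample in the panels of 1389867_at and 1388195_at and the highest in that of 1387880_at.

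Probe sets of 1 gene did not always have the same sign. Of 17 genes with several tested probe sets, 8 had differences of both signs in the mean housing comparison and 8 in the mean KA comparison, and 12 in the interaction. Over all 966 genes with several tested probe sets the shares were 44.9%, 49.6% and 47.5%, beside 47.1%, 47.1% and 70.6% of the 17. The widest gaps in the mean housing comparison were 0.48 for Sf3a1, 0.22 for Celf2, 0.14 for Hnrnpa2b1, 0.13 for Ddx6 and 0.13 for Hnrnpu. In the mean KA comparison they were 0.61 for Celf2, 0.29 for Rbm39, 0.14 for Hnrnpa3, 0.11 for Srsf1 and 0.11 for Ddx5. Rbm39 is a coactivator and splicing factor, and its probe set 1381967_at gave 251, 267 and 255 for PBS_isolated, 269, 281 and 324 for KA_isolated, 246, 278 and 316 for PBS_enriched, and 283, 334 and 364 for KA_enriched. It had 0.19 (SE 0.0763, adjusted p = 0.996) for KA against PBS over both housings, while its 1379737_a_at, 1398993_at and 1399101_at probe sets had 0.00, -0.03 and -0.10.

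The 7 tested Snrp genes shared a sign in 4 of the comparisons, with small values. They encode the Sm core proteins Snrpb, Snrpd2, Snrpd3, Snrpe and the neuronal Snrpn, and the branch point particle's Snrpa1 and Snrpb2. KA against PBS was above 0 for 6 of 7 in isolated rats (median 0.08, against 47.7% of all probe sets above 0) and for 0 of 7 in enriched rats (median -0.12, against 48.7%). Enriched against isolated was above 0 for 7 of 7 after PBS (median 0.10, against 51.0% of all) and for 0 of 7 after KA (median -0.13, against 51.1%), and these comparisons share samples with the KA comparisons. The interaction was below 0 for 7 of 7, from -0.39 to -0.06 with a median of -0.28, and 49.8% of all probe sets were above 0. At an unadjusted p under 0.05 limma's test held 0 of the 7 in any of these comparisons, and the lowest adjusted p of the interaction was 0.951.

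The Snrp values by sample show how small this was. Snrpd3 had the largest interaction, -0.39 (SE 0.217), with signals of 265, 287 and 266 for PBS_isolated, 344, 287 and 335 for KA_isolated, 292, 354 and 277 for PBS_enriched, and 197, 308 and 329 for KA_enriched. The groups overlapped in every comparison, with KA_enriched replicate 1 the lowest of the 12. Snrpa1 gave 58.4, 56.3 and 45.2 for PBS_isolated, 66.5, 56.9 and 75.6 for KA_isolated, 58.8, 76.7 and 52.8 for PBS_enriched, and 59.5, 61.7 and 55.8 for KA_enriched, an interaction of -0.30 (SE 0.166). Snrpn, from an imprinted locus, gave 52.3, 49.1 and 38.2, then 59.7, 56.0 and 36.9, then 42.6, 60.7 and 54.3, then 61.8, 43.6 and 24.5, an interaction of -0.33 (SE 0.284). The sign count of the interaction was 7 of 7 with each sample left out in turn. These fits share most of their samples, and the family was picked after its values were seen, so this adds no support. After PBS the housing difference was above 0 for 6 of 7 without PBS_isolated replicate 2, PBS_enriched replicate 1 or PBS_enriched replicate 2. In enriched rats the KA difference was below 0 for 4 of 7 without KA_enriched replicate 1, and after KA the housing difference was below 0 for 5 of 7 without KA_enriched replicate 3. The median interaction was -0.17 without KA_enriched replicate 1. With the beta-actin ratio as a covariate it was -0.22, and the housing difference after KA was below 0 for 6 of 7. The median KA difference in enriched rats was -0.03 without KA_enriched replicate 3, and the median housing difference after KA was -0.05 without KA_enriched replicate 1.

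Some members hardly varied. Rbm17, a splicing factor of branch point recognition, had the smallest spread within groups, an SD of 0.0484 on the log2 scale, with signals of 171, 175 and 174 for PBS_isolated, 168, 171 and 186 for KA_isolated, 161, 173 and 174 for PBS_enriched, and 164, 162 and 161 for KA_enriched. Its housing difference was -0.07 (SE 0.0477) after PBS and KA together. Celf5 and the helicase Ddx1 had SDs of 0.0633 and 0.0642, and their 7 differences lay between -0.09 and 0.17. Rbm3, a cold-shock protein that binds RNA, varied more, with an SD within groups of 0.116 on the log2 scale. It gave 215, 176 and 190 for PBS_isolated, 212, 192 and 196 for KA_isolated, 187, 190 and 177 for PBS_enriched, and 197, 156 and 161 for KA_enriched. The Rbm3 housing difference was -0.13 (SE 0.0674, adjusted p = 0.875).

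The 26 member probe sets below the filter were fitted with no filter on dim probe sets. Their mean signals lay between 2.49 and 46.8, and limma called 0 of 26 in any of the 7 comparisons, with 0 or 1 at an unadjusted p under 0.05 in each.

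Other genes of splicing, cleavage and polyadenylation, which do not carry the family names, were looked at in the same fit. Of 100 such genes 75 were on the array, and 85 probe sets for 72 genes were tested. limma called 0 of 85 in any comparison, and at an unadjusted p under 0.05 there were 2 to 6 in each (2.35% to 7.06%, against 4.21% to 7.02% of all tested). Raver1, a partner of the splicing repressor Ptbp1, gave 51.3, 59.6 and 53.8 for PBS_isolated, 48.4, 52.9 and 52.6 for KA_isolated, 41.3, 30.7 and 44.6 for PBS_enriched, and 44.9, 44.1 and 44.2 for KA_enriched. Every enriched sample was below every isolated sample, and 0.305% of all probe sets tested were apart in this way in either direction. Raver1 had the smallest F test p of the 85, and its housing difference was -0.26 (SE 0.0650, adjusted p = 0.550). Its probe set was dim, with a mean of 5.998 on the log2 scale, just above the filter at 5.997. Other processing settings gave housing differences from -0.35 to -0.17. Clp1, an RNA kinase of the cleavage complex, gave 66.9, 79.2 and 70.04 for PBS_isolated, 66.6, 53.4 and 59.5 for KA_isolated, 49.2, 60.8 and 57.6 for PBS_enriched, and 75.7, 84.4 and 67.6 for KA_enriched, so that the KA samples lay below PBS in isolated and above PBS in enriched rats, as for Cpsf4. Opposite KA directions with no overlap in either housing were found in 0.494% of all probe sets tested. The interaction of Clp1 was 0.57 (SE 0.138, adjusted p = 0.808). Pcbp4, a poly(C)-binding protein, had a KA difference of 0.21 over both housings (SE 0.0677, adjusted p = 0.996).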

How the data were processed

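The authors deposited 1 value per probe set and array, an intensity on a linear scale; the summary method and genome build are not given in the sources used here. The values show that all arrays share 1 mean once 2% of probe sets at each end are left out. Array medians lay between 70.06 and 74.1, and the intensity was kept as deposited. The 57 control probe sets were left out, 17 was added (the 19.96th percentile of the table, which understates differences of dim genes), log2 was taken, and the 60% of probe sets with the highest mean were tested. Genes came from the annotation table of the array; all 145 members matched a RefSeq gene of the same symbol by Entrez ID.

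limma 3.58.1 in R 4.3.3 (lmFit, eBayes) fitted 1 mean per group over all 12 samples, with 7 two-sided contrasts and an F test at 13.1 total degrees of freedom. SE and intervals are those of the fit. The number of arrays limits the precision. The members, lists and tests were chosen with earlier results of these data known. Genes were named by rule: in each contrast members with the smallest unadjusted p (up to 4 in each direction), those with the smallest F test p overall and per family, genes whose probe sets disagreed most, the largest and smallest spreads, and Rbm14 and Cpsf4, known from earlier results; only some of the genes the rule takes are described. Snrpd3 and the sign counts of the Snrp family were chosen after their values were seen. Alternatives were another pseudocount, another filter, quantile normalization, equal medians, a replicate block, array weights, the beta-actin ratio as a covariate and leaving out each sample. The steps were tested on simulated data.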

Additional observations from a re-analysis of the deposited data

Results flagged for a closer look

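The KA difference of Cpsf4 (1398878_at) went in opposite directions in the 2 housings, with every KA sample below every PBS sample in isolated rats and above every PBS sample in enriched rats. The difference between the housings was tested as the interaction in limma: it was 0.80 on the log2 scale (SE 0.162, unadjusted p = 0.000257, adjusted p = 0.758) and did not pass. The pattern was looked for in all members, of which 1 of 119 had it, against 0.494% of all probe sets tested.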

How the results depend on the processing

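The number of members called was 0 in each of the 7 comparisons and in the F test, and it was 0 under each of the 21 or 22 alternatives run per result. The 60 gene and comparison pairs taken by the naming rule kept their sign and their side of the threshold in all 662 alternative values. They had been picked by that rule for a small p and did not pass in the main fit, so this says little about stability. Outside that rule, the KA differences in enriched rats of the Celf2 probe sets 1389867_at and 1388195_at turned from -0.24 and -0.31 to 0.06 and 0.09 without KA_enriched replicate 3. The labels do not say whether samples with the same replicate number belong together. Same-numbered samples of different groups had correlations of their deviations from group means from -0.0721 to 0.199, with 2 of 18 over 0.1. Every pair numbered 2 was above 0 (0.0104 to 0.0791), and so was every pair numbered 3 (0.0366 to 0.199). Pairs numbered 1 ran from -0.0721 to 0.0715. For the 36 pairs with other numbers the correlations ran from -0.142 to 0.101. The fit with the replicate block called 0 members. The median difference of the members moved by more than their spread between samples in 4 cases, to -0.0441 for KA against PBS in enriched rats without KA_enriched replicate 2, to 0.0364 for enriched against isolated after KA without KA_enriched replicate 3, and for the latter to 0.0345 without KA_isolated replicate 2 and to -0.0159 with equal medians. The causes were not tested. Sign counts of the Snrp genes under these settings were added after the data were seen. The 12 arrays, at 3 per group, left a median SE of 0.0962 on the log2 scale for a difference between 2 groups.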
